A study of Mus musculus with 8 samples.

Results

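Neat1 and Malat1 are long noncoding RNAs that stay in the nucleus, and they lie next to each other on mouse chromosome 19. Here their levels are described in group 2 innate lymphoid cells (ILC2s) sorted from visceral fat of mice on a normal or a high-fat diet. They are 2 of 39527 genes in the deposited table, and they were chosen by name for their deposited values on the 2 diets. Their levels on each diet are therefore given as a description, with no test, and tests between the diets are used for other genes only.

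ILC2s live in tissues, carry no antigen receptor and secrete type 2 cytokines such as interleukin-5. All libraries came from epididymal visceral adipose tissue of male wild-type C57BL/6 mice aged 14 weeks. The normal-diet group (libraries N1 to N4) and the high-fat group (H1 to H4) each hold 4 libraries, and feeding began at the age of 6 weeks and lasted 8 weeks. The series as a whole concerns the kinase LKB1 and mitochondria in adipose ILC2s. In the labels, the 8 libraries analysed here differ only by diet and replicate number. Nothing in the labels tells separate animals from pools or repeat preparations. Every p-value below is therefore set against the spread among 4 libraries per diet, part or all of which could be technical.

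Neat1 is the scaffold of paraspeckles, nuclear bodies that hold back some RNAs and proteins. Transcription from 1 promoter gives a short polyadenylated Neat1 and a long Neat1, and only the long form can build a paraspeckle. Malat1 is enriched in nuclear speckles, the neighbouring bodies that store splicing factors. Neither Malat1 nor long Neat1 carries an ordinary poly(A) tail: RNase P cuts each behind an A-rich tract, releases a small tRNA-like RNA, and the remaining end folds into a triple helix that protects the RNA.

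In the mm10 build with the GENCODE M21 annotation, Neat1 (ENSMUSG00000092274) spans chr19:5824708-5845478 and Malat1 (ENSMUSG00000092341) spans chr19:5795690-5802672. Both are lincRNA genes on the minus strand, 22.0 kb apart. Long Neat1 (Neat1-201) is annotated as 20771 bases, short Neat1 (Neat1-202) as 3004 bases at chr19:5842307-5845476, and full-length Malat1 (Malat1-201) as 6983 bases. The short Neat1 lies within the long one, so reads of both fall on 1 gene and cannot be told apart in a value per gene.

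The shared 3′ element of the family is shown because it marks both RNAs as a pair. It is printed 5′ to 3′ from the GENCODE M21 transcripts on the minus strand, with T for U. Capitals mark the first U-rich motif, the second U-rich motif and the A-rich tract that pairs with them.
Malat1-201 (chr19:5795982-5796073): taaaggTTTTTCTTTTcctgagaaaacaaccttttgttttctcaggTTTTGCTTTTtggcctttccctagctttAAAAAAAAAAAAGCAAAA
Neat1-201 (chr19:5824708-5824803): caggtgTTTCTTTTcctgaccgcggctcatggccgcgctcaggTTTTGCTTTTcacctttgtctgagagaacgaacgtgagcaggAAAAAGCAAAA

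The A-rich tract ends in GCAAAA in both RNAs, after 12 A bases in Malat1 and 5 in Neat1. In Neat1-201 it is the end of the annotated transcript, whereas the annotation of Malat1-201 runs on for another 292 bases. A search of 141767 annotated transcripts on their own strand looked for the 3 blocks in order, 10 to 60 bases apart. The blocks were a run of T followed by CTTTT, then TTTTGCTTTT, then a run of A followed by GCAAAA. The search found 2 transcripts, of 2 among 55450 genes, which are the 2 it was modelled on.

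The tRNA-like RNAs that follow the A-rich tracts are shown next, with the longest stretch they share, 9 bases, in capitals. The first is the annotated small RNA gene Gm27702, which starts at the base after Neat1. The second is the stretch behind the Malat1 tract.
Gm27702 (chr19:5824652-5824707): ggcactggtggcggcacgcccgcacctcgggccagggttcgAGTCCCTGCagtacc
Malat1 after the A-rich tract (chr19:5795922-5795981): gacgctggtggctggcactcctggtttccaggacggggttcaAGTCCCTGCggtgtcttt

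Gm27702 held 0 to 3 reads per library. Short Neat1 ends differently, at an ordinary poly(A) signal, and its last 60 bases are shown with that signal in capitals.
Neat1-202 end (chr19:5842307-5842366): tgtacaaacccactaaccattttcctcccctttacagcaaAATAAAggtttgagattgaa

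The signal lies 14 bases before the annotated end. How each RNA ends bears on the measurement, because the SMART-Seq HT kit named in the labels primes cDNA with oligo(dT). Malat1-201 holds 5 runs of at least 6 A, the longest of 12. Neat1-201 holds 7 such runs, the longest of 7, and Neat1-202 holds 0 before its tail. The part of these primer sites in the levels below was not tested.

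The deposited values of both RNAs are below 0 in every library, as they are for 2661 of 2957 lincRNA genes and 14605 genes in all, as though divided by a gene length of -1. Their size still follows the reads. Each value also carries a factor that recurs over 10 rows and ranges from 0.863 to 1.18. Dividing the factor out gave whole reads for 100% of the values below 0, at a tolerance of 0.0001 of the reads. That tolerance grows with the reads, so every Malat1 value passed by construction and the check was loose for Neat1. The 3 scales used are the size of the deposited value, the same with the factor divided out, and RPM, the recovered reads scaled to 1000000 per library. Recovered reads came to 9005363 to 15752815 per library. For genes above 0 they rest on a search of whole lengths, so the reads of some may be overestimated. RPM, shares of reads and ranks among all genes carry that limit. H2 had the fewest reads and the most genes with a read, 32846, and N2 had the fewest genes with a read, 23355.

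Neat1 was lower in the high-fat libraries on all 3 scales. In the normal-diet libraries it held 4078, 4520, 4977 and 4917 reads (N1 to N4), and in the high-fat libraries 3046, 2327, 3255 and 3421 reads (H1 to H4). In RPM this came to 332, 302, 369 and 323 on the normal diet. On the high-fat diet it came to 211, 258, 243 and 217. The lowest normal-diet library, N2, lay above the highest high-fat library, H2. Their exact 95% binomial intervals, 293 to 311 for N2 and 248 to 269 for H2, cover counting error only.

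The mean of Neat1 fell from 331 ± 27.9 RPM on the normal diet to 232 ± 22.2 on the high-fat diet (SD, n = 4 each). That is a log2 difference of -0.51 (SE 0.09), or -30.0%. The choice of Neat1 used this contrast. Of 14161 genes with at least 1 RPM in 4 libraries, 586, or 4.14%, had every high-fat library below every normal-diet library, and 428 had a more negative log2 difference than Neat1. In the other direction 1921, or 13.6%, had every high-fat library above every normal-diet library. Of the 336 lincRNA genes among them, 13 were lower without overlap, 23 were higher without overlap and 10 had a more negative difference than Neat1. These are bulk samples of sorted cells, so fewer cells with high Neat1 and less Neat1 per cell cannot be told apart.

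**Figure D1:**
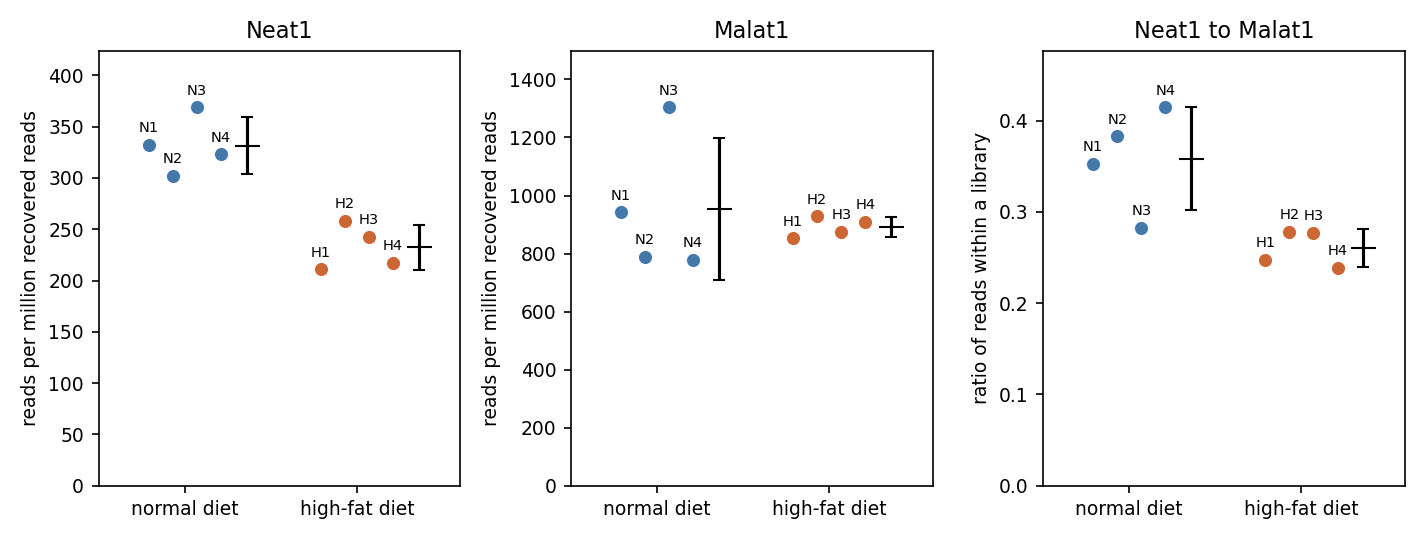
Neat1 and Malat1 in RPM, and the ratio of Neat1 to Malat1 reads, for each of the 4 normal-diet (N) and 4 high-fat (H) libraries, with the mean and SD as bars and all axes from 0. Neat1 and the ratio do not overlap between the diets, whereas Malat1 overlaps and N3 stands highest at 1303.

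Malat1 differed less between the diets, and its groups overlapped. It held 11554, 11802, 17596 and 11866 reads in N1 to N4 and 12313, 8359, 11739 and 14332 reads in H1 to H4. In RPM the normal-diet libraries lay at 941, 788, 1303 and 779. The high-fat libraries lay at 853, 928, 876 and 910, between the normal-diet extremes. N3 was highest and N4 lowest of the 8 libraries.

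The mean of Malat1 was 953 ± 245 RPM on the normal diet and 892 ± 33.7 on the high-fat diet (SD, n = 4 each). The log2 difference of -0.06 was smaller than its SE of 0.18. The normal-diet SD is that of 1 high library and 3 lower ones, and the same library also held the most Neat1, 369 RPM. Without N3 the difference turned to 0.10 in RPM, and in deposited size it moved from -0.26 to -0.06, so that in RPM the direction for Malat1 rests on N3.

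The Neat1 to Malat1 ratio within a library is free of library size. It was 0.353, 0.383, 0.283 and 0.414 in N1 to N4 and 0.247, 0.278, 0.277 and 0.239 in H1 to H4. The groups did not overlap, but N3, where Malat1 was high, lay just above H2 and H3. The mean ratio was 0.358 ± 0.056 on the normal diet and 0.260 ± 0.020 on the high-fat diet (SD, n = 4 each), a log2 difference of -0.45 (SE 0.13).

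Per kb of its longest transcript, Malat1 stood well above Neat1 in every library. Malat1 lay at 136 ± 35.1 RPM per kb on the normal diet and 128 ± 4.83 on the high-fat diet. Neat1 lay at 16.0 ± 1.34 and 11.2 ± 1.07 if all its reads are spread over the long form. Malat1 was thus 7.18 to 12.5 times Neat1 per kb. Spread over the short form instead, the same Neat1 reads give 110 ± 9.28 on the normal diet and 77.3 ± 7.38 on the high-fat diet, so the distance between both RNAs depends on which Neat1 was present.

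By reads, not per length, Malat1 ranked first among the lincRNA genes of the table in all 8 libraries and held 15.7% to 25.5% of their reads. Neat1 had rank 4 in all 8. Its share of lincRNA reads was 7.15% to 7.61% on the normal diet and 4.37% to 5.40% on the high-fat diet, with no overlap. Among all genes Malat1 ranked 92 to 196 and Neat1 433 to 821.

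With all 8 libraries, the scale used changed the sizes of these differences but not their direction. In deposited size Neat1 ran from 351150 to 451599 on the normal diet and from 241241 to 298129 on the high-fat diet, a log2 difference of -0.62 (SE 0.10). H4, the highest of its diet, carried a factor of 1.18 for Neat1, and N2, the lowest of its diet, one of 0.863. With the factor divided out, Neat1 lay at 392224 to 418642 on the normal diet and at 243159 to 260717 on the high-fat diet, a log2 difference of -0.68 (SE 0.03). The coefficient of variation (SD over mean) was 3.10% and 2.85% there. It was 10.3% and 10.2% as deposited, and 8.41% and 9.54% in RPM.

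The remaining step between the scales joins the submitters' library scaling with the recovered read totals, and their parts were not separated. Once the factor was out, 1 RPM was worth 1136 to 1348 deposited units in normal-diet libraries and 977 to 1159 in high-fat libraries. On average this lowers high-fat values by 0.16 on the log2 scale. The median log2 difference over all genes was -0.02 as deposited and 0.15 in RPM. Relative to that median, RPM put Neat1 at -0.67 and Malat1 at -0.22. Deposited Malat1 ran from 961276 to 1753668 on the normal diet and from 926094 to 1060314 on the high-fat diet, a log2 difference of -0.26 (SE 0.20), and -0.23 (SE 0.14) with the factor divided out.

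**Figure D2:**
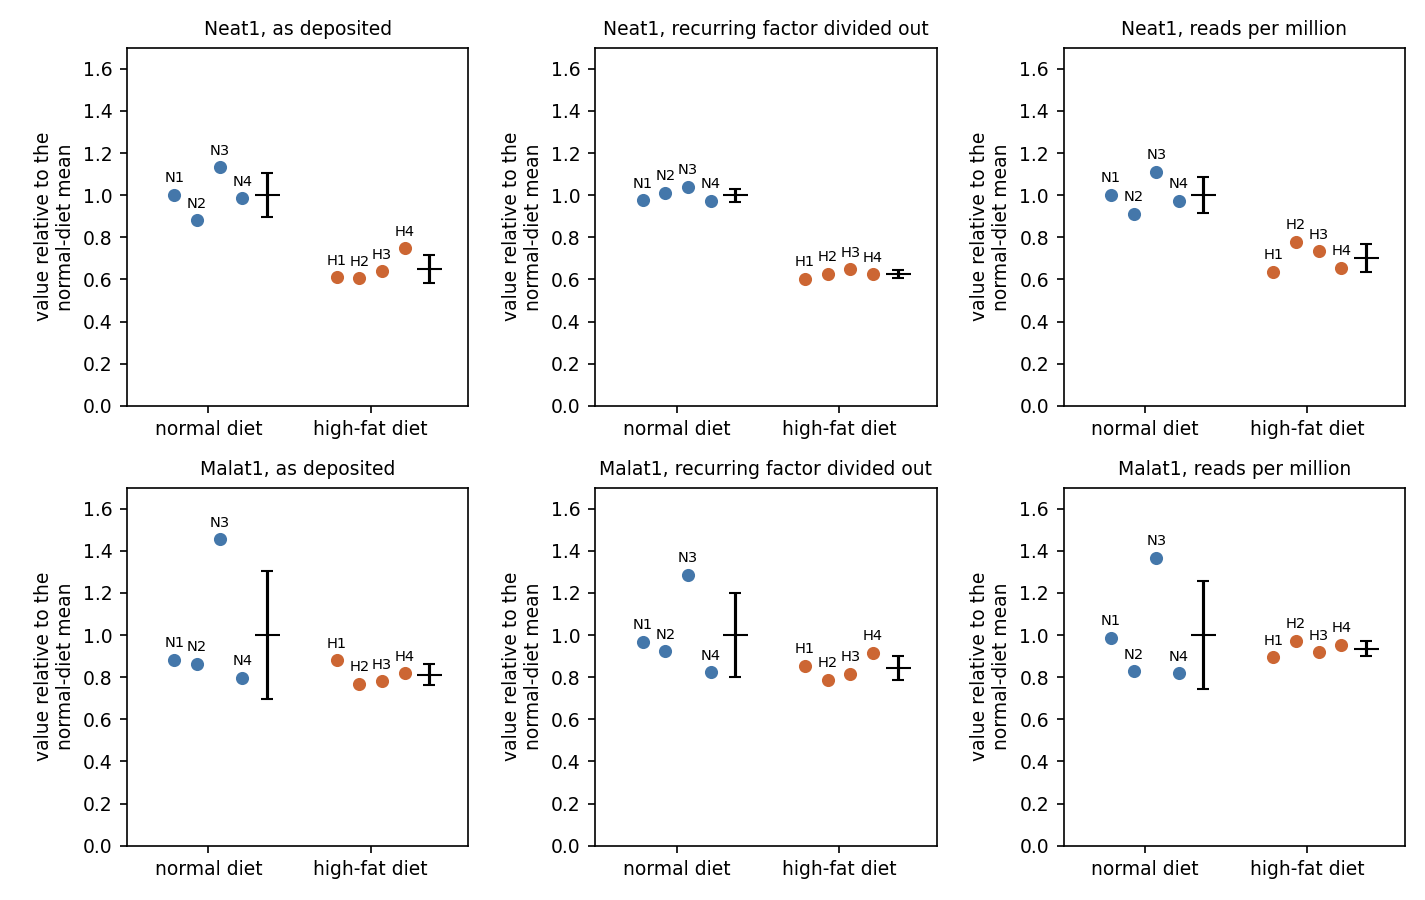
Neat1 (upper panels) and Malat1 (lower panels) in each library relative to the normal-diet mean, as deposited, with the recurring factor divided out, and in RPM, with mean and SD as bars and axes from 0. The Neat1 points of 1 diet lie closest together with the factor divided out (coefficients of variation of 3.10% and 2.85%), and Malat1 is highest in N3 on all 3 scales.

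The genes that work with either RNA were drawn from 7 lists of 152 distinct genes. Of these, 147 were in the table, 25 had values below 0, 4 were under the filter and 118 were tested with limma on log2(FPKM + 1), where p-values were adjusted by the Benjamini-Hochberg method over all tested genes. Across 11483 tested genes 328 were called at an adjusted p of 0.05, which is 2.86%, with 112 higher and 216 lower on the high-fat diet. Of the 118 related genes 1 was called, Mat2a, which was lower. At an unadjusted p of 0.05 there were 18 related genes (15.3%) against 2083 of all tested genes (18.1%). The related genes had a median log2 difference of -0.08, beside -0.02 for all tested genes.

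None of the 9 core paraspeckle proteins, which bind Neat1 and are needed to build the body, was called by limma on either scale, and 0 passed an unadjusted p of 0.05. Sfpq, a splicing factor of the DBHS family, had means of 11.6 ± 1.81 FPKM with normal and 10.9 ± 3.17 with high-fat feeding. Nono, its usual partner, was at 87.4, 125, 90.8 and 83.3 FPKM in N1 to N4 and 99.5, 81.3, 84.0 and 98.5 FPKM in H1 to H4. The groups overlapped (log2 difference -0.08, limma adjusted p = 0.856). Hnrnpk, which favours the long Neat1 over the short one, was the most abundant of the list at 809 ± 95.4 and 724 ± 85.0 FPKM (log2 difference -0.16, limma adjusted p = 0.611). Pspc1, the remaining DBHS protein, was at a log2 difference of -0.23 and Rbm14, which joins paraspeckle subunits together, at 0.04. The median of the list was -0.16 on the deposited scale but 0.03 in RPM.

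A further 30 paraspeckle-associated proteins were tested, and 0 were called by limma, against 2 of 32 in RPM, both higher, beside 7.62% of all genes called higher there. At an unadjusted p of 0.05, 7 passed, all of them with a negative difference, beside 11.0% of all tested genes that passed with one. Ewsr1, an RNA-binding protein, was at 385, 505, 308 and 414 FPKM in N1 to N4 and 278, 201, 291 and 313 FPKM in H1 to H4. Only H4 and N3 crossed (log2 difference -0.57, limma adjusted p = 0.107). Rbm3, a cold-inducible RNA-binding protein, averaged 270 ± 38.4 FPKM in N1 to N4 and 197 ± 29.1 in H1 to H4, without overlap (log2 difference -0.45, limma adjusted p = 0.143). In RPM the Rbm3 groups overlapped (log2 difference -0.25, limma adjusted p = 0.156).

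Nuclear speckle genes, the setting of Malat1, gave 0 calls among 26 tested and a median of -0.12. Of the 26, 3 (11.5%) passed an unadjusted p of 0.05, beside 18.1% of all tested genes. In RPM the median was 0.05 and 3 genes were called higher, beside the same 7.62%. The SR splicing factors Srsf5 (log2 difference -0.13, limma adjusted p = 0.703) and Srsf3 (-0.05, limma adjusted p = 0.890) were the most abundant of them, and both turned positive in RPM, at 0.06 and 0.14.

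Genes that form or degrade such RNA ends gave 0 calls among 24 tested and a median of 0.01. Of the 24, 4 (16.7%) passed an unadjusted p of 0.05, beside 18.1% of all tested genes. In RPM 1 of 26 was called, higher, beside 7.62% of all genes called higher. Rpp21 (log2 difference -0.16, limma adjusted p = 0.702) and Pop5 (-0.22, limma adjusted p = 0.577) are protein subunits of RNase P. The 9 listed regulators of Neat1 transcription also gave 0 limma calls on either scale and 0 at an unadjusted p of 0.05. Among them Stat3, a cytokine-activated transcription factor, was at -0.24 (limma adjusted p = 0.394) and Hif1a, the hypoxia-induced factor, at -0.15 (limma adjusted p = 0.705). Trp53, which encodes p53, was at 0.18 and the heat-shock factor Hsf1 at 0.00.

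The list of 21 transcripts known to be held in the nucleus with a detained intron had 1 call, Mat2a, beside 2.86% of all tested genes. An unadjusted p of 0.05 was passed by 3 (14.3%), beside 18.1% of all tested genes. In RPM 2 of 21 were called higher and 1, Mat2a, lower, beside 10.2% of all genes called in either direction. Mat2a makes S-adenosylmethionine, the methyl donor of the cell. It lay at 320, 329, 349 and 321 FPKM in N1 to N4 and 213, 230, 207 and 180 FPKM in H1 to H4. Every high-fat library lay below every normal-diet library, and Mat2a fell by 0.67 on the log2 scale (SE 0.14, limma adjusted p = 0.0156). It was no longer called with quantile normalization (adjusted p = 0.0584), without H3 (0.0576) or without H4 (0.0626). The values count a gene as a whole, so spliced and intron-holding Mat2a cannot be told apart.

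Of 33 other noncoding RNAs, 30 were in the table and 24 of these have values below 0, which left 6 tested and 0 called. Among the 6, 2 (33.3%) passed an unadjusted p of 0.05, beside 18.1% of all tested genes. Tug1, a nuclear and cytoplasmic lncRNA, was at 59.3, 77.1, 48.1 and 61.6 FPKM in N1 to N4 and 46.5, 35.4, 37.2 and 46.7 FPKM in H1 to H4. The groups did not overlap, and the difference of -0.55 missed the threshold (limma adjusted p = 0.0916). Gas5, a host gene of small nucleolar RNAs, was at 994 ± 87.0 and 1100 ± 153 FPKM (log2 difference 0.14, limma adjusted p = 0.678).

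Noncoding genes below 0 can be followed in RPM, where 1444 of 14161 genes, or 10.2%, were called by limma, 1079 (7.62%) higher and 365 lower. On that scale 24 genes of the noncoding list were tested, and 2 were called, both higher and both named after their values were seen. The median of these 24 was 0.19, close to the 0.15 of all genes. Mir142hg, the host gene of the blood-cell microRNA miR-142, rose from 16.2 ± 4.99 to 34.0 ± 6.09 RPM (log2 difference 1.06, limma adjusted p = 0.00781). Dleu2, the host gene of miR-15a and miR-16-1, rose from 12.8 ± 1.04 to 19.5 ± 3.03 (log2 difference 0.56, limma adjusted p = 0.0291). Gm26917, an abundant unnamed lincRNA, was at 493 ± 64.7 and 446 ± 60.2, and the imprinted Kcnq1ot1 at 41.0 ± 3.77 and 36.7 ± 8.46. Over all 140 related genes tested on this scale, 10 were called higher and 1 lower, again Mat2a.

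**Figure D3:**
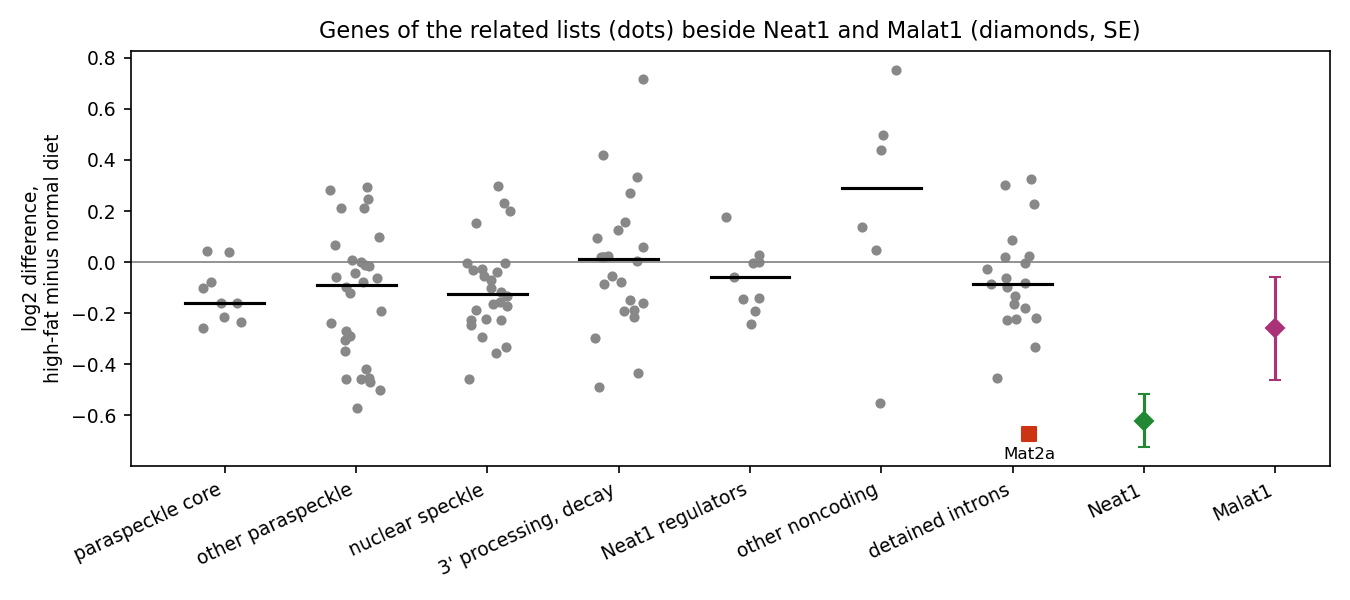
Log2 difference (high-fat minus normal diet) of every tested gene of the 7 related lists (dots, black bar for the median), with called genes as red squares, beside Neat1 and Malat1 on the deposited scale (diamonds with SE). Mat2a is the only called gene, and Neat1 at -0.62 lies below all medians, which run from -0.16 to 0.29.

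The genes around both RNAs were examined over 250 kb on either side of their span (chr19:5545690-6095478). Of 51 annotated genes, 36 were in the table and 23 were tested. By limma 0 were called, 5 (21.7%) passed an unadjusted p of 0.05, beside 18.1% of all tested genes, and the median log2 difference was 0.09. In RPM 4 of 26 were called, all higher, beside 7.62% of all genes called higher on that scale: Sipa1, Frmd8, Slc25a45 and Znhit2.

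On the Neat1 side, Frmd8, a cofactor of iRhom proteins, lies 4.22 kb away. It was at 19.8, 25.1, 21.8 and 29.0 FPKM in N1 to N4 and 31.7, 24.3, 31.9 and 46.3 FPKM in H1 to H4, with overlap (log2 difference 0.45, limma adjusted p = 0.222). In RPM Frmd8 did not overlap, at 59.1 ± 10.1 and 87.3 ± 10.1 (limma adjusted p = 0.0162). Frmd8os, an antisense gene 0.145 kb from Neat1, held 1 to 15 reads per library and was under the filter.

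Slc25a45, a mitochondrial carrier gene 32.3 kb from Neat1, was chosen after its values were seen. It was at 4.06, 4.63, 5.45 and 7.33 FPKM in N1 to N4 and 8.05, 9.09, 8.67 and 11.2 FPKM in H1 to H4. The high-fat libraries were all higher, and the log2 difference of 0.71 fell just short of the threshold (limma adjusted p = 0.0505), while in RPM it passed (0.00290). The library does not mark strand, so reads of Neat1 or Malat1 and of overlapping opposite-strand genes cannot be told apart. The annotation has 1 such gene, Gm37376, within Malat1, which is not in the table.

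**Figure D4:**
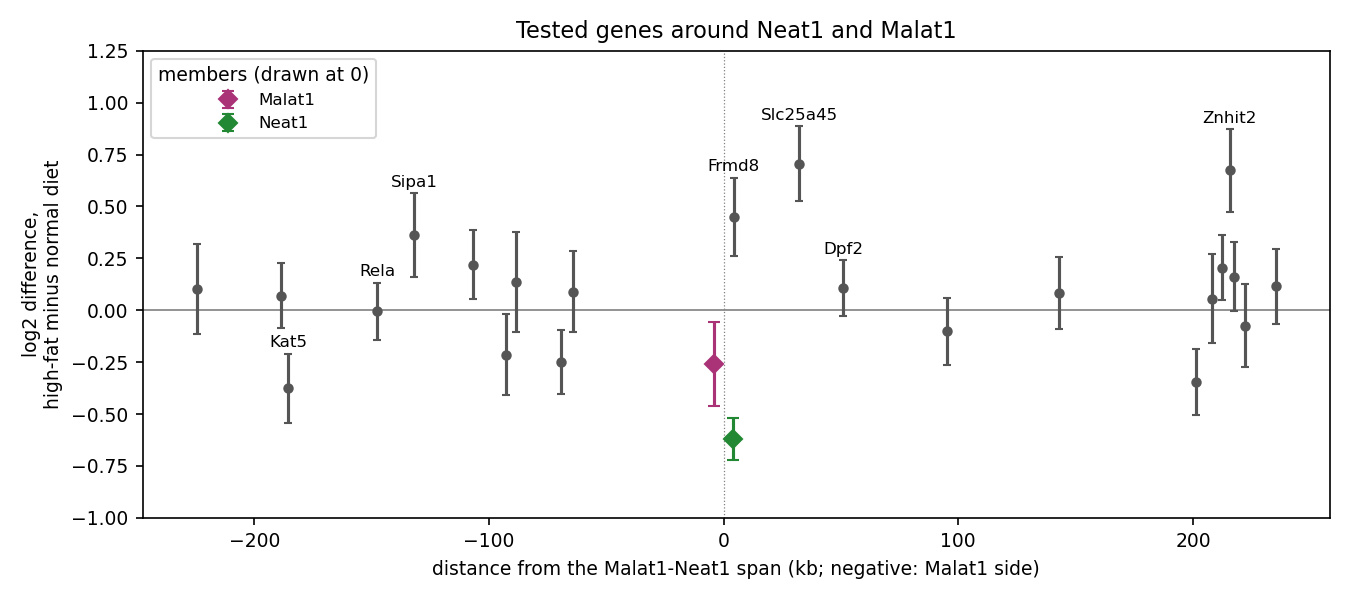
Log2 difference with SE, high-fat minus normal diet on log2(FPKM + 1), for tested genes within 250 kb of Neat1 and Malat1 against their distance in kb, with both members (log2 of deposited size) drawn at distance 0. Frmd8 and Slc25a45, the nearest tested genes on the Neat1 side, lie above 0 at 0.45 and 0.71, and Neat1 lies at -0.62.

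Across the 8 libraries the log2 deposited sizes of Neat1 and Malat1 had a Pearson correlation of 0.62, and of 0.57 once each diet's mean was taken off. In RPM the correlations were 0.40 and 0.68. These describe 8 libraries that share their depth and scaling between both genes.

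The genes whose log2 values were most like Neat1 over the 8 libraries, among 10432 searched, were Grwd1 (Pearson r = 0.965), Ckb (0.964), Crtap (0.958), Ilkap (0.957) and Rnf39 (0.953). Grwd1 encodes a ribosome assembly chaperone and Ckb the brain-type creatine kinase. Grwd1 had a mean of 23.2 FPKM in normal-diet and 11.7 in high-fat libraries, and Ckb one of 27.2 and 14.2. Of these 5 genes, 2 carry the same recurring factor as Neat1, and Ilkap had an r of only 0.235 in RPM. For Malat1 the 5 nearest were Gtf3c4 (r = 0.934), Csgalnact2 (0.921), mt-Rnr2 (0.920), Reep4 (0.919) and Ipmk (0.918), of which 2 carry its factor. mt-Rnr2 is the large ribosomal RNA of mitochondria. Each list is the top of 10432 genes over only 8 libraries, so high r values are picked by the search itself. Neat1 was chosen on its diet contrast, so its search over all 8 libraries favours genes that are also lower on the high-fat diet. The falls of Grwd1 and Ckb are therefore no separate result. Malat1 was highest in N3, and the part of that library in its list was not tested.

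With each diet's mean taken off, Gdf15, Ankrd13c, Pidd1, Fam134b and Inmt were nearest to Neat1, at r of 0.945 to 0.965. Once the factor was divided out their r was 0.134 to 0.407, far lower than with the factor in place. For Malat1 the corresponding genes were Rpl15-ps3, Ttc32, Gcc2, Mettl15 and Ccl25, at r of 0.933 to 0.973, and they kept 0.724 to 0.941. The search over all 8 libraries, with the diet means kept, was repeated with the factor divided out from the start. For Neat1 it again favours genes lower on the high-fat diet. The 5 genes most like Neat1 were then Hspa8 (0.988), Tbrg4 (0.986), Grwd1 (0.985), Unc5b (0.979) and Nt5e (0.979). Hspa8 is a constitutive chaperone, and Nt5e encodes CD73, which makes adenosine. For Malat1 they were Cep85l (0.950), Mtcp1 (0.938), Vsig10l (0.919), Get4 (0.915) and Serac1 (0.911). Grwd1 is the single gene that this search shares with the first.

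Markers of ILC2s were present in all libraries, as the label of the sort has it. All 11 had reads, and their sum was 15329 to 16845 RPM on the normal diet and 13146 to 14478 on the high-fat diet. The groups did not overlap, with 5 of 11 markers lower and 2 higher without overlap, beside 4.14% lower and 13.6% higher over the 14161 genes followed in RPM. Endothelial markers summed to 67.8 to 88.9 RPM on the normal diet and 97.2 to 169 on the high-fat diet, also without overlap, with 6 of 10 higher, beside the same 13.6%. ILC2 markers were thus lower and endothelial markers higher in the libraries where Neat1 was low, and the part of either in the Neat1 difference was not tested.

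Sums of other lists overlapped between the diets. Of single markers in RPM, 3 of 8 for macrophages were higher without overlap and 1 was lower. For fibroblasts 1 of 5 and for adipocytes 1 of 4 were higher without overlap. The share over all genes was 13.6% higher and 4.14% lower. T cell, B cell, mast cell and neutrophil lists had 0 in either direction. T cell markers lay at 75.7 to 156 and 106 to 239 RPM, macrophage markers at 10.2 to 14.1 and 11.9 to 20.1, and fibroblast markers at 5.62 to 21.9 and 19.0 to 119. Mast cell markers varied widely, from 3099 to 6652 and from 1633 to 6900, with the lowest in H2. B cell, adipocyte and neutrophil markers each summed to at most 11.0 RPM. No marker of any list was at 0 throughout. Transcripts of the mitochondrial genome summed to 3775 to 5006 and 3077 to 4246 RPM and were highest in N3, the library with the most Malat1 and Neat1. The detained-intron list was also highest in N3, at 11080 RPM. The part of these lists in the values of N3 was not tested.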

How the data were processed

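RNA of sorted ILC2s was measured in 4 libraries of each diet. Trizol RNA was made into full-length cDNA with SMART-Seq HT and tagged with a transposase kit (TruePrep), per the labels' protocols. HISAT2, Cufflinks and mm10 are named in the submitters' processing notes, with neither versions nor roles.

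The deposited values are called FPKM, per the file headers, but were treated as a score, because 14605 genes hold values below 0 and a recurring factor of 10 sizes multiplies them. Whole reads were recovered by dividing out the factor and, for genes above 0, by finding the shortest length from 20 bases that made all 8 values whole (relative tolerance 1e-06, at most 0.02 reads). This was found for 100% of 24107 genes. Reads are underestimated for a gene whose length and 8 counts have a common divisor. They are overestimated for a gene whose true length is not a whole number. Some genes came out with an odd length and 8 even counts, such as Hnrnpk at 3483 bases. The effect on library totals, and so on RPM, was not tested. The recovery and the test were checked on simulated data. All simulated lengths were whole, so that check does not cover other lengths. Reads in genes below 0 were 1.73% to 2.50% of a library.

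Genes with at least 1 FPKM in 4 libraries and no value below 0 were tested on log2(FPKM + 1) with limma 3.58.1 in R 4.3.3 (eBayes trend and robust, diet as the only term, two-sided, Benjamini-Hochberg at 0.05). Differences are high-fat minus normal diet, and FPKM below names these deposited values. A fold change on log2(value + 1) understates the change of low genes. Members have no test between the diets: their SE is that of a difference of 2 means of log2 values.

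The members and gene lists were chosen with earlier results of these data known. Named genes are the members, up to 4 called genes of each list or else the 2 most abundant, the 5 most like each member, the nearest gene on each side, and called genes nearby. 1 other gene that falls under this rule was left out of the text and the plots. Others were named for their role or chosen after their values were seen. Sequences are from GENCODE M21 transcripts. Alternatives were another pseudocount, no filter or a filter at 5 FPKM, quantile normalization, equal medians, the factor divided out, RPM, each library left out, H2 and N2 left out, and the replicate number as a block.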

Additional observations from a re-analysis of the deposited data

Results flagged for a closer look

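Malat1 in the normal-diet library N3 stood apart from the other normal-diet libraries in deposited size, at 1753668. The gap to the nearest of the others was 0.869 of the range of the 4 libraries, which is what singled it out. It is given as a description of 1 diet, since Malat1 was chosen on these values. The recurring factor for Malat1 in N3 was 1.18, the highest of its sizes. With the factor divided out the value was 1480092, and in RPM it was 1303, and in RPM it was not singled out by the same measure.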

How the results depend on the processing

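Neat1 was lower on the high-fat diet under every alternative tried, and its log2 difference of -0.62 became -0.61 at equal medians, -0.54 in RPM without the top 100 genes, and -0.69 to -0.56 leaving out 1 library each. In RPM with 1 library left out each, Neat1 ran from -0.57 to -0.46 (-0.47 without H1, -0.46 without N3). Malat1 ran from -0.35 to -0.06 leaving out 1 library each, and in RPM from -0.15 to 0.10, where the sign turned without N3 alone, and the log2 ratio of Neat1 to Malat1 from -0.56 to -0.37. Leaving out libraries in RPM or with the factor divided out, dividing the factor out at the deposited scaling, and the likeness search with the factor divided out, were chosen after seeing the data.

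The 328 called genes became 130 with no filter, 571 with the factor divided out and 1444 in RPM (1079 higher and 365 lower, beside 112 and 216). Quantile normalization gave 430 (226 higher, 204 lower). Leaving out 1 library each gave 129 to 536: 129 without H3 or H4, 176 without N2, 182 without N1, 200 without H1 and 536 without H2. The 1 related gene called became 2 at equal medians (Mat2a and Tug1) and 11 in RPM, and 0 to 1 leaving out 1 library each. Quantile normalization also gave 1, but Fip1l1 in place of Mat2a. The 0 genes called near the locus became 2 at 5 FPKM, 2 with quantile normalization, 1 at equal medians, 2 with the factor divided out, 4 in RPM, 2 without H2 and N2, and 0 to 1 leaving out 1 library each (1 without H2 or without N4). The cause of these changes was not tested.

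Replicate numbers are shared between the diets, but they did not pair the libraries: deviations from the group means correlated at -0.0709, -0.255, -0.0722 and 0.0783 for numbers 1 to 4. With the number as a replicate block 191 genes were called, 0 of them related (Mat2a at adjusted p = 0.0540) and 0 near the locus. The median over same-numbered pairs was -0.63 for Neat1, -0.09 for Malat1 and -0.49 for their ratio. No high-fat library correlated best with its own number.

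Over the 13 named genes of the lists, 202 values kept direction and call, 14 changed sign, 4 lost the call and 1 gained it. None of those that changed sign was called. With quantile normalization they were Hnrnpk at 0.036, Nono at 0.064, Srsf5 at 0.091, Srsf3 at 0.15 and Hif1a at 0.0046. In RPM they were Nono at 0.13, Srsf5 at 0.064, Srsf3 at 0.14, Rpp21 at 0.014 and Hif1a at 0.098. Leaving out 1 library each, Nono ran from -0.14 to 0.053 (without N2) and Srsf3 from -0.14 to 0.021 (without N3). Without H2 and N2, Nono was at 0.10 and Hnrnpk at 0.0030. The cause was not tested. Gm27702 and Frmd8os held too few reads to show a difference, and the part of depth or of oligo(dT) priming in this was not tested.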
